A study of Bos taurus with 16 samples.

Results

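The ovarian angiotensin system was followed through 5 genes that encode its precursor, its converting enzyme and its receptors: AGT, ACE, AGTR1, AGTR2 and ATP6AP2. They were taken by symbol from 20629 features measured in 16 bovine libraries. The set was selected on gene family with the counts of AGTR1 in these libraries, and its difference between treatment and control, already known. Each gene is read here from 1 RefSeq record: AGT from NM_001114082.2, ACE from NM_001206668.1, AGTR1 from NM_174233.2, AGTR2 from XM_010821316.2 and ATP6AP2 from NM_001098022.1. The RNA came from aspirates of the dominant follicle, taken 63 ± 3 days post partum from lactating Holstein cows of 1 dairy unit, whose cohort numbered 45. All cows had been synchronised with gonadotropin-releasing hormone and then prostaglandin F2-alpha, and the follicle was emptied just before the next injection of the releasing hormone. The labels set 7 treatment libraries against 9 control libraries without saying what treatment stands for or which library came from which cow. The series title places the study after uterine disease has resolved, and cows with metritis had been given the antibiotic ceftiofur, but no label ties either to a library. P-values therefore measure the spread between these libraries.

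Angiotensinogen, the product of AGT, is cut to angiotensin I, which the peptidase ACE shortens to the active peptide angiotensin II. Angiotensin II acts through AGTR1, a receptor that couples to Gq proteins and calcium, and through AGTR2, which often opposes it. ATP6AP2 is a receptor of the system at the cell surface and also an accessory subunit of the vacuolar proton pump, so that nearly all cells express it. In the cow, the follicle holds its own angiotensin II, and the peptide is known to take part in the ovulatory response to luteinising hormone. AGTR2 has been described in bovine granulosa cells, which line the follicle and convert androgens to oestradiol.

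The libraries were of 2 kinds, read from INHA, the alpha subunit of the granulosa hormone inhibin. A library with INHA above 1000 CPM (a gene's counts scaled to the total of transcript counts in its library) is called granulosa-rich and one under 200 CPM leukocyte-rich. The lowest granulosa-rich library, treatment replicate 4, had 1759 CPM of INHA and the highest leukocyte-rich library, treatment replicate 1, had 111.4 CPM. Granulosa-rich were treatment replicates 4 to 7 and control replicates 2, 3, 4, 7 and 8. Leukocyte-rich were treatment replicates 1 to 3 and control replicates 1, 5, 6 and 9. The 10 granulosa markers summed to 42408 to 135597 CPM in the 9 granulosa-rich libraries and 166.6 to 5298 CPM in the 7 leukocyte-rich libraries, while 8 measured monocyte and macrophage markers summed to 16.1 to 1033 CPM and 4862 to 8748 CPM. The source label of all 16 libraries reads blood, yet HBB, a haemoglobin chain that fills red cells, reached no more than 42.7 CPM. The kinds are no groups of the study, so differences between them are described without a test, and in such bulk samples fewer cells of a type and less RNA per cell cannot be told apart. The libraries held 8004595 to 14138964 transcript counts, at which 3 counts correspond to 0.212 to 0.375 CPM, a limit that covers counting error only. CPM is not scaled to transcript length, so levels are compared between libraries and not between genes.

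Transcripts of AGT, the precursor of all angiotensins, were near the detection limit in 15 libraries and plain in 1. Control replicate 8 held 116 of the 139 counts of AGT, or 12.5 CPM (95% exact binomial interval 10.3 to 15 CPM). In the granulosa-rich treatment libraries 4, 5, 6 and 7 AGT had 1, 1, 3 and 1 counts, against 0, 2, 1, 4 and 116 counts in the granulosa-rich control libraries 2, 3, 4, 7 and 8. In the leukocyte-rich treatment libraries 1, 2 and 3 it had 4, 1 and 0 counts, against 0, 4, 0 and 1 counts in control replicates 1, 5, 6 and 9. The level in control replicate 8 was 28.1 times that of the next library, treatment replicate 1 at 0.445 CPM. Of the 9653 features tested over all libraries, 4 (0.0414%) were highest in control replicate 8 by at least 10 times, a set that leaves out AGT, which failed the filter on low counts.

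Control replicate 8 also held the highest level of EDN1, the vasoconstrictor peptide endothelin 1, at 19.9 CPM, with at most 3.36 CPM in the other libraries. Fibroblast markers were high there, with a summed level of 2314 CPM over the 6 markers. They were as high in control replicate 3, at 2241 CPM, where AGT was at 0.185 CPM, and higher in treatment replicate 2, at 10993 CPM, where AGT was at 0.0819 CPM. The 5 measured theca markers summed to 1080 CPM in control replicate 8 and to 1009 CPM in control replicate 4, where AGT was at 0.0707 CPM. Their part in the level of AGT was not tested.

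ACE, the peptidase that makes angiotensin II and breaks down bradykinin, was found mainly in leukocyte-rich libraries. Its median was 0.659 CPM in the 9 granulosa-rich libraries, with a range of 0 to 7.32 CPM, and 8.45 CPM in the 7 leukocyte-rich libraries, with a range of 1.84 to 13 CPM. The ranges overlapped, because 2 granulosa-rich libraries stood far above the other 7. They were treatment replicate 6 at 7.32 CPM and control replicate 8 at 6.26 CPM, while the other 7 lay between 0 and 1.34 CPM. Macrophages and endothelial cells are known sources of ACE. Treatment replicate 6 and control replicate 8 had summed monocyte and macrophage markers of 298 and 139.7 CPM, inside the range of the other granulosa-rich libraries, and treatment replicate 4, with the highest sum of the 9 at 1033 CPM, had 0.659 CPM of ACE. The 10 endothelial markers summed to 11.3 CPM in treatment replicate 6, with EMCN and ROBO4 at 0. They summed to 35.6 CPM in control replicate 8, with CLDN5, EMCN, ESAM and ROBO4 at 0, a sum exceeded among granulosa-rich libraries only by the 136.2 CPM of treatment replicate 7, where ACE was at 1.34 CPM. KDR gave 28.1 CPM of the sum in control replicate 8. Which cells gave the ACE transcripts was not tested.

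Of the receptors, AGTR2 was next to absent from the counts. A single read in treatment replicate 6 was the only count of AGTR2 in the 16 libraries, a pooled level of 0.00558 CPM (95% exact binomial interval 0.000141 to 0.0311 CPM). The other 6 treatment libraries and all 9 control libraries had 0 counts, for which the limit of 3 counts a library given above applies. The deposited counts list AGTR2 under 1 accession, XM_010821316.2, where the RefSeq gene table holds 3. A record that was not counted and a record with 0 reads look alike in these files. ACE and AGTR1 were likewise counted under 1 record each, where the RefSeq gene table holds 4 and 2.

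AGTR1 was low in 15 libraries and abundant in 1. Among granulosa-rich libraries it was at 2.42, 1.12, 2.87 and 83.3 CPM in treatment replicates 4, 5, 6 and 7, against 1.98, 0, 0, 0.973 and 3.24 CPM in control replicates 2, 3, 4, 7 and 8. Treatment replicate 7 alone held 1059 of the 1257 counts of AGTR1 (84.2%), and its level had a 95% exact binomial interval of 78.4 to 88.5 CPM. The other 3 treatment libraries lay inside the range of the 5 control libraries. Among leukocyte-rich libraries AGTR1 was at 1.11, 0.983 and 0.169 CPM in treatment replicates 1, 2 and 3, against 0.147, 0.539, 1.78 and 1.87 CPM in control replicates 1, 5, 6 and 9. These groups overlapped as well. Between kinds of library the medians were 1.98 CPM in granulosa-rich and 0.983 CPM in leukocyte-rich libraries, with overlapping ranges.

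**Figure D1:**
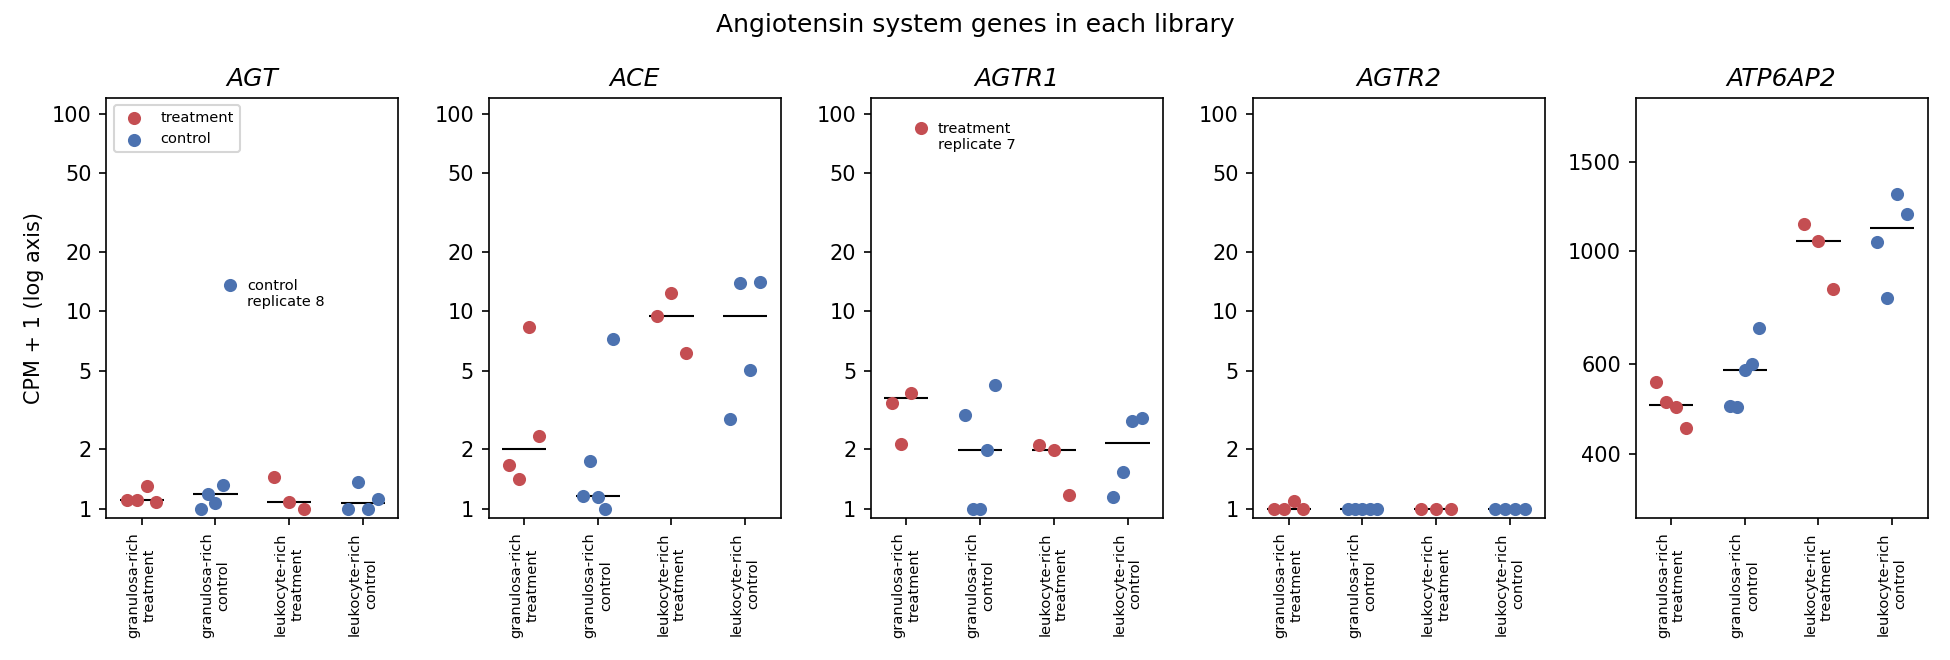
CPM + 1 of the 5 genes on a log axis, by kind of library and group; each point is a library and each line a median. AGT is high only in control replicate 8 (12.5 CPM), AGTR1 only in treatment replicate 7 (83.3 CPM), and every leukocyte-rich library lies above every granulosa-rich library for ATP6AP2.

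The library with abundant AGTR1 also differed from the others in the genes that answer the surge of luteinising hormone. TNFAIP6, which cross-links the hyaluronan of the expanding cumulus, was at 25541 CPM in treatment replicate 7 and between 64.4 and 9088 CPM in the other 8 granulosa-rich libraries. AREG, an epidermal growth factor-like ligand that relays the surge, was at 939.9 CPM there and at most 78.9 CPM in the other 8. CYP19A1, the aromatase whose transcripts fall after the surge, was at 276.3 CPM there and between 8439 and 28576 CPM in the other 8. The 6 measured genes of the surge list summed to 27449 CPM in treatment replicate 7, of which TNFAIP6 alone gave 25541 CPM, so the sum mostly restates that gene.

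A high surge sum did not always come with AGTR1. Control replicates 4 and 7 had surge sums of 12126.5 and 10818.5 CPM, with ADAMTS1, a protease of the ovulatory follicle, at 2963 and 3564 CPM against 602.6 CPM in treatment replicate 7. AGTR1 had 0 counts in control replicate 4 and was at 0.973 CPM in control replicate 7. CYP19A1 was at 22402 and 15060 CPM in these 2 libraries. The receptors of the kinin system, which ACE links to angiotensin by cutting bradykinin, were highest in the same 3 libraries. BDKRB2, the constitutive bradykinin receptor, was at 106.4 CPM in treatment replicate 7, at 22.1 and 18.1 CPM in control replicates 4 and 7, and at most 3.24 CPM in the other granulosa-rich libraries. BDKRB1, its inducible relative, was at 24.6 CPM in treatment replicate 7, at 8.63 and 6 CPM in control replicates 4 and 7, and at most 0.635 CPM in the other granulosa-rich libraries. These genes were set beside AGTR1 after their values were seen, and the part of the surge response in the level of AGTR1 was not tested.

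**Figure D2:**
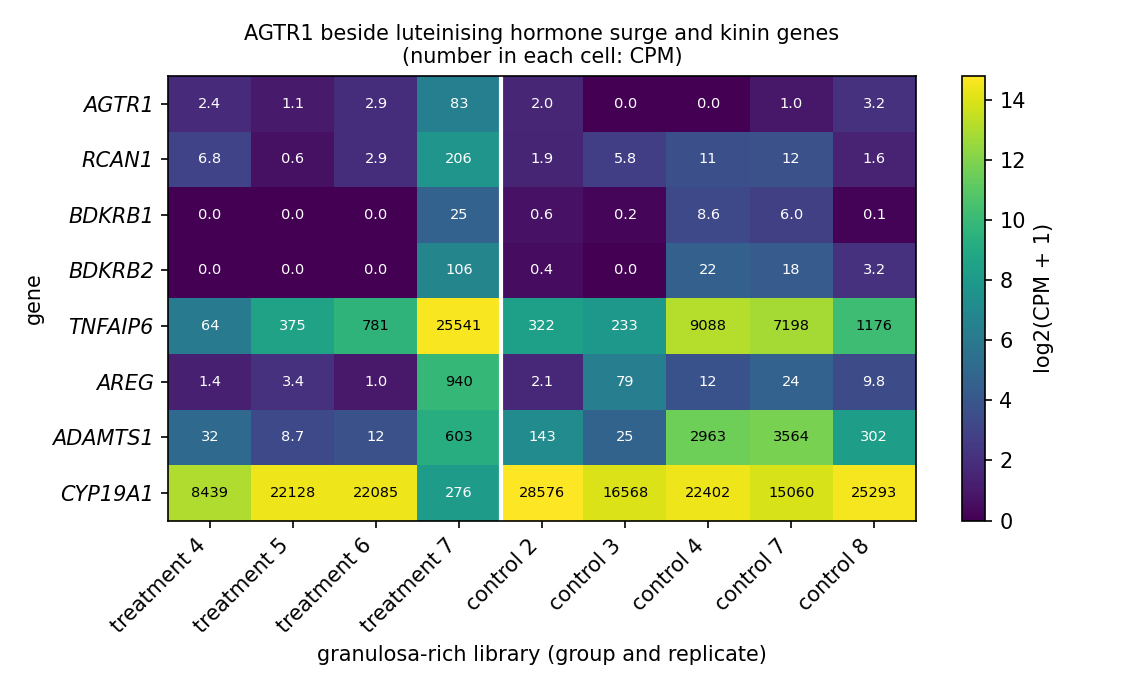
Colour gives log2(CPM + 1) and the printed number CPM for 8 genes in the 9 granulosa-rich libraries, 4 treatment libraries left of the line and 5 control libraries right of it. AGTR1 is high only in treatment replicate 7, whereas TNFAIP6 and BDKRB2 are also raised in control replicates 4 and 7.

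Markers of the vessel wall and of theca, the layer outside the granulosa, were read in the same library, since vascular smooth muscle is known to carry AGTR1. The 9 measured pericyte and smooth muscle markers summed to 127.8 CPM in treatment replicate 7, the lowest of the 9 granulosa-rich libraries, which reached 1494 CPM. The proteoglycan CSPG4 and the adhesion molecule MCAM made up most of that sum, at 63.3 and 26.7 CPM. Of the 9 markers 8 had a count there, and PDGFRB was at 0 in all 9 libraries. The 5 theca markers summed to 939 CPM in treatment replicate 7, within the range of 166.1 to 1080 CPM of the other granulosa-rich libraries. This sum did not separate the kinds, as it was 263.8 to 1043 CPM in leukocyte-rich libraries. The 10 endothelial markers summed to 136.2 CPM in treatment replicate 7, against 4.05 to 35.6 CPM in the other 8. KDR, a receptor of vascular endothelial growth factor, gave 96.8 CPM of that sum and VWF, the von Willebrand factor, 36.7 CPM, both the highest of the 9. Of the 10 markers 7 had a count there, EMCN with 0.157 CPM in this library alone of the 9, and PECAM1, CDH5 and ROBO4 had 0 counts. PECAM1 and CDH5 were also at 0 in treatment replicates 4 and 5, and ROBO4 was at 0 in all 9. The part of these cells in the level of AGTR1 was not tested.

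ATP6AP2 was abundant in every library and higher in the leukocyte-rich ones. It was at 552.4, 505.9, 492.99 and 449.3 CPM in granulosa-rich treatment replicates 4, 5, 6 and 7, against 497.2, 494.8, 583.1, 599.3 and 705.3 CPM in granulosa-rich control replicates 2, 3, 4, 7 and 8. In leukocyte-rich libraries it was at 1129, 1047 and 840.9 CPM in treatment replicates 1, 2 and 3, against 1042, 808.1, 1295 and 1183 CPM in control replicates 1, 5, 6 and 9. Groups overlapped within each kind, whereas on plain CPM the kinds did not, with medians of 505.9 CPM in granulosa-rich and 1047 CPM in leukocyte-rich libraries. With library sizes rescaled by TMM, the scaling of the tests below, the kinds overlapped. Granulosa-rich control replicate 7 was then at 922.1 CPM, above leukocyte-rich control replicate 5 at 750.3 CPM and treatment replicate 3 at 851.7 CPM. On plain CPM ATP6AP2 was the 1 gene of the 5 without overlap, beside 17.7% of the 9653 features tested over all libraries. Of all tested features 11.6% were lower in every granulosa-rich library and 6.1% higher.

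Between treatment and control none of the 5 genes was free of overlap, over all libraries (beside 0.0104% of tested features), in granulosa-rich libraries (1.82%) or in leukocyte-rich ones (3.87%). Whether treatment and control differed was then asked of all features at once by edgeR's quasi-likelihood test with Benjamini-Hochberg adjustment. Over the 16 libraries 0 of 9653 features (0.0%) passed an adjusted p of 0.05, 163 had an unadjusted p under 0.05, and DESeq2 and limma-voom also called 0. AGTR1, ACE and ATP6AP2 passed the filter on low counts, and AGT and AGTR2 did not. AGTR1 averaged 13.1 ± 31 CPM in treatment and 1.17 ± 1.12 CPM in control (SD, n = 7 and n = 9). Its fitted log2 fold change was 3.48 ± 1.25 (SE), the difference with rank 25 by p among 9653, with an unadjusted p of 0.013 and an adjusted p of 0.999997 by edgeR. AGTR1 had been named from this same comparison earlier, so its rank is a description. Without treatment replicate 7 the log2 fold change was 0.19 ± 0.88 (SE). On log2 CPM, where a single high library weighs less, AGTR1 was at 1.14 ± 2.58 in treatment and -0.55 ± 2.01 in control (SD, n = 7 and n = 9), with a two-sided exact permutation p of 0.171 over 11440 splits and 0.391 without treatment replicate 7.

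ACE averaged 4.96 ± 4.31 CPM in treatment and 4.33 ± 5.29 CPM in control (SD, n = 7 and n = 9), a log2 fold change of 0.18 ± 0.96 (SE). ATP6AP2 averaged 716.9 ± 285.2 CPM in treatment and 800.9 ± 302.5 CPM in control (SD, n = 7 and n = 9), a log2 fold change of -0.26 ± 0.25 (SE). Both were far from the threshold (adjusted p = 0.999997 each by edgeR). The exact permutation p over all libraries, whose spread includes the difference between the kinds, was 0.411 for ACE and 0.543 for ATP6AP2. AGT, which the filter left out, had 11 counts in 6 of 7 treatment libraries and 128 counts in 6 of 9 control libraries, with an exact permutation p of 0.761.

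Within the 9 granulosa-rich libraries 0 of 9272 features (0.0%) passed with edgeR, 433 had an unadjusted p under 0.05, limma-voom called 0 and DESeq2 called 26 (0.28%), among them none of the 16 angiotensin system genes to which it gave an adjusted p. It gave none to AGTR1, RCAN1, EDN1 and ARRB1. AGTR1 had a log2 fold change of 4.04 ± 1.58 (SE, adjusted p = 0.983 by edgeR), which became 0.6 ± 1.33 without treatment replicate 7. The two-sided exact permutation p of AGTR1 was 0.127 over 126 splits. ATP6AP2 was at 500.1 ± 42.4 CPM in treatment and 575.9 ± 86.8 CPM in control (SD, n = 4 and n = 5), a log2 fold change of -0.4 ± 0.25 (SE, adjusted p = 0.983 by edgeR). With library size alone as the scaling it was -0.2, while the median of all features moved to 0.19 from 0.04. ACE was filtered out here, with an exact permutation p of 0.302.

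Within the 7 leukocyte-rich libraries 0 of 9912 features (0.0%) passed with edgeR, 259 had an unadjusted p under 0.05, and DESeq2 and limma-voom called 0. The log2 fold changes were -0.53 ± 0.93 (SE) for AGTR1, 0.08 ± 0.66 for ACE and -0.11 ± 0.19 for ATP6AP2 (adjusted p = 0.999586 each by edgeR). ACE was at 8.33 ± 3.12 CPM in treatment and 7.93 ± 5.83 CPM in control (SD, n = 3 and n = 4). The two-sided exact permutation test doubles the smaller tail, so with 35 splits it cannot reach 0.05. It gave 0.857, 0.743 and 0.629 for AGTR1, ACE and ATP6AP2. Whether the effect differed between the kinds was tested by an interaction term, for which 0 of 11468 features (0.0%) passed with edgeR, 608 had an unadjusted p under 0.05, limma-voom called 0 and DESeq2 called 31 (0.27%), none of them among the 22 angiotensin system genes to which it gave an adjusted p, while AGTR1, RCAN1, DPP3 and ZBTB16 had none. For AGTR1 the difference of log2 fold changes, granulosa-rich minus leukocyte-rich, was 4.63 ± 2.17 (SE, adjusted p = 0.911 by edgeR), and 1.15 ± 1.76 without treatment replicate 7.

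**Figure D3:**
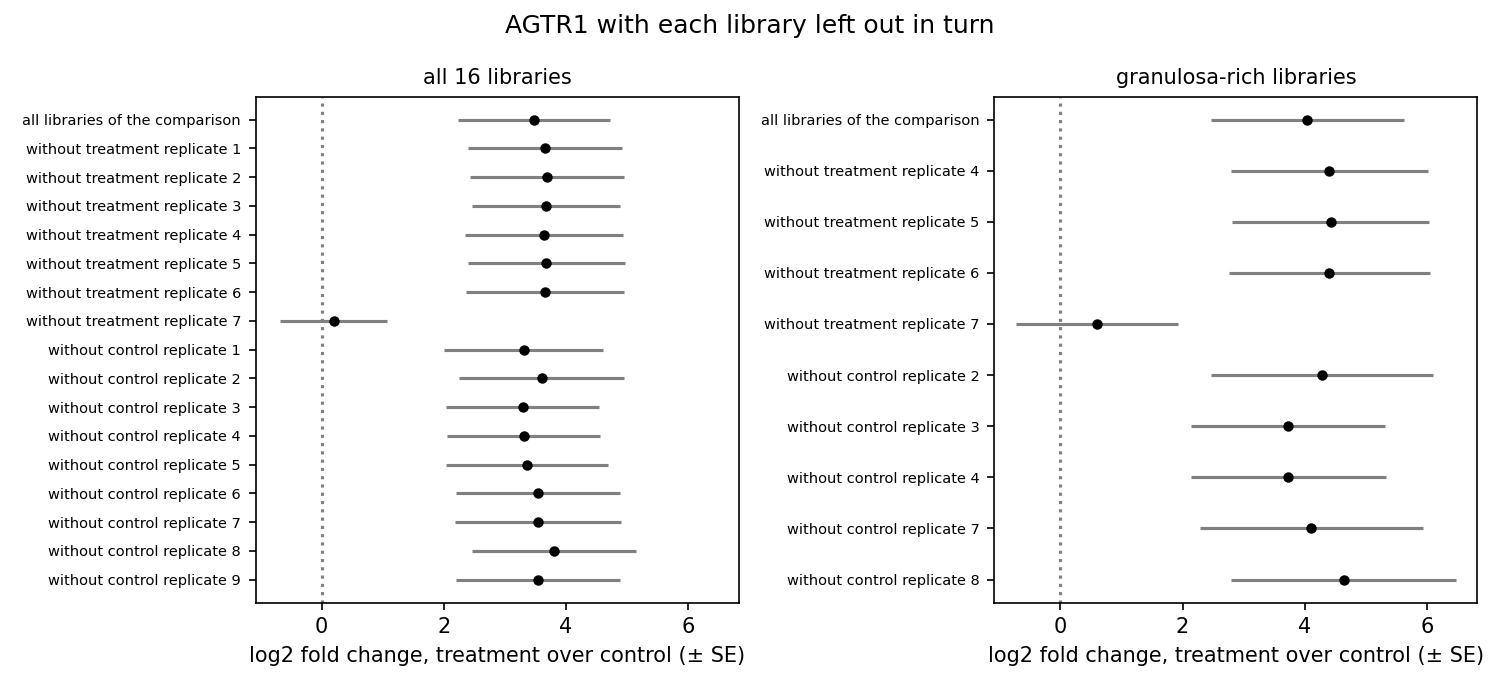
Log2 fold change of AGTR1, treatment over control, with its standard error, from the fit of all libraries of the comparison and with each library left out in turn. The value over 16 libraries is 3.48 and drops to 0.19 only without treatment replicate 7; in granulosa-rich libraries it is 4.04 and drops to 0.6.

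The rest of the pathway was read from 41 genes, the 5 among them, of which 34 occurred in the files and 22 were tested over all libraries. None passed in either direction in any of the 3 comparisons of treatment with control. Over all libraries 9 were fitted higher and 13 lower in treatment, and their median log2 fold change was -0.11 beside 0.01 over all 9653 features. In granulosa-rich libraries 10 of 20 were higher and 10 lower (median 0.02, beside 0.04 over all features), and in leukocyte-rich libraries 9 of 21 were higher and 12 lower (median -0.04, beside 0.01). The angiotensin-(1-7) receptor MAS1 was not analysed here.

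Among enzymes that process angiotensins, ENPEP marked the granulosa-rich libraries. ENPEP, the aminopeptidase that turns angiotensin II into angiotensin III, had a median of 23.4 CPM in granulosa-rich libraries (9.93 to 103.3 CPM) and 0.539 CPM in leukocyte-rich ones (0 to 3.45 CPM). Its log2 fold change between treatment and control was 0.82 ± 1.29 (SE) over all libraries. ANPEP, which carries the degradation on, ran the other way, with medians of 1.98 CPM in granulosa-rich and 6.72 CPM in leukocyte-rich libraries, and overlapped. The peptidases PREP, NLN and THOP1, which can make angiotensin-(1-7) from angiotensin I, were present in all libraries. PREP had medians of 133.1 and 201.1 CPM, NLN of 24.1 and 19.3 CPM, and THOP1 of 50.6 and 78.4 CPM in granulosa-rich and leukocyte-rich libraries. THOP1 was the 1 pathway gene of 21 tested with an unadjusted edgeR p under 0.05 in leukocyte-rich libraries, beside 259 of all 9912 features. Its log2 fold change there was -0.64 ± 0.21 (SE, adjusted p = 0.999586 by edgeR), while in granulosa-rich libraries its fitted value was 0.47 ± 0.34. The interaction with library kind was 1.14 ± 0.42 for THOP1 (SE, adjusted p = 0.37 by DESeq2). CLTRN, collectrin, a membrane protein known from kidney and pancreas, had medians of 75.6 CPM in granulosa-rich and 10.5 CPM in leukocyte-rich libraries, without overlap.

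Partners of the receptors that passed the filter, and the arrestins, lay with the leukocyte-rich libraries. ZBTB16, a partner that the filter left out, had medians of 0.44 CPM in granulosa-rich and 0.125 CPM in leukocyte-rich libraries, with overlap. AGTRAP, which binds the tail of AGTR1 and promotes its internalisation, had medians of 2.84 CPM in granulosa-rich and 15.4 CPM in leukocyte-rich libraries. The arrestins ARRB1 and ARRB2, which silence and internalise such receptors, had medians of 0.849 and 2.09 CPM in granulosa-rich and of 12.8 and 15.7 CPM in leukocyte-rich libraries. MTUS1, which binds AGTR2, was at 0 to 0.593 CPM in granulosa-rich and 0.874 to 12.4 CPM in leukocyte-rich libraries. The gap between these ranges rests on 6 counts in treatment replicate 6 and 7 in control replicate 9, within counting error. ATP6AP1, a second accessory subunit of the proton pump, had medians of 423.2 and 620.9 CPM. On plain CPM AGTRAP, ARRB1, ARRB2, MTUS1 and ATP6AP1 did not overlap between the kinds. With library sizes rescaled by TMM, ATP6AP1 overlapped, as ATP6AP2 did. On plain CPM, of 19 tested genes other than the 5 followed here, 2 (ENPEP and CLTRN) were higher and 5 lower in every granulosa-rich library. The other 12 overlapped. Of all tested features 6.1% were higher and 11.6% lower in every granulosa-rich library.

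Of the genes that carry the signal of AGTR1, GNAQ and GNA11, the G protein subunits that AGTR1 uses, were counted in every library. They had medians of 54.6 and 53.9 CPM in granulosa-rich and of 88.3 and 35.4 CPM in leukocyte-rich libraries, with overlap. Of the phospholipases that follow them, PLCB3 had medians of 3.09 CPM in granulosa-rich and 4.05 CPM in leukocyte-rich libraries, and PLCB1 had 19 counts in the 9 granulosa-rich and 1 count in the 7 leukocyte-rich libraries. Treatment replicate 7 held the highest level of GNAQ, at 138.5 CPM, with 121 CPM in the next library. RCAN1, an inhibitor of calcineurin that is induced by calcium signals, was at 205.7 CPM in treatment replicate 7 and at most 58.9 CPM in the other 15 libraries. The log2 fold change of RCAN1 was 1.55 ± 0.97 (SE, adjusted p = 0.999997 by edgeR) over all libraries. Its medians were 9.37 CPM in treatment and 9.43 CPM in control. Treatment replicate 7 was the highest library for 9.76% of all tested features, and for 9 (0.0932%) it was so by at least 10 times, as for AGTR1 at 25.7 times the next library. Of the endothelin receptors, EDNRA had medians of 13 CPM in granulosa-rich and 1.35 CPM in leukocyte-rich libraries, and EDNRB had 0 and 11.1 CPM, both with overlap.

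**Figure D4:**
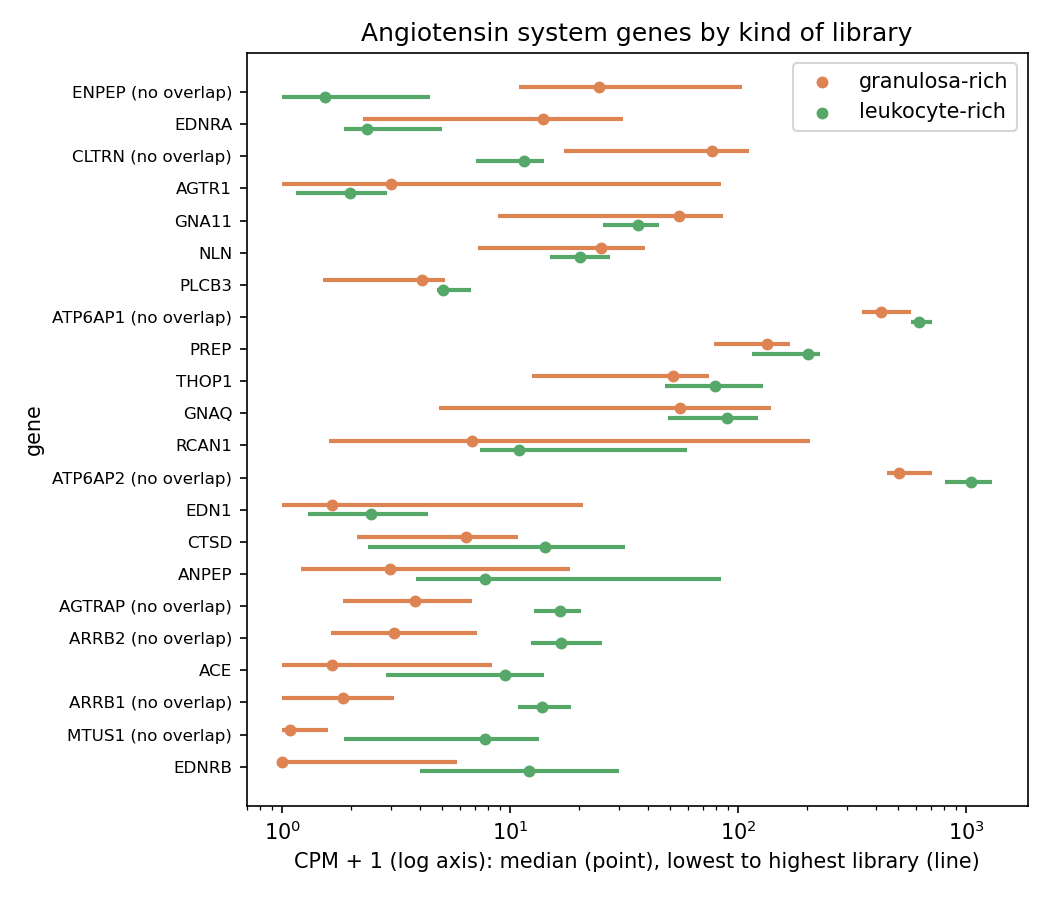
CPM + 1 on a log axis for the 22 tested genes of the angiotensin system and its linked peptides; points are medians and lines run from the lowest to the highest library, granulosa-rich above leukocyte-rich. ENPEP and CLTRN lie higher in granulosa-rich libraries, and ATP6AP2, ATP6AP1, AGTRAP, ARRB1, ARRB2 and MTUS1 lie lower, without overlap on plain CPM.

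The features most like 3 of the genes were sought among 8087 named features by the root mean square difference of centred log2 CPM over the 16 libraries. For AGTR1 they were LOC768319, KDR and GPRC5B, an orphan receptor, at 1.54, 1.61 and 1.71 log2 units, where AGTR1 itself varied by 2.28. All of these had their highest level in treatment replicate 7, at 103.7, 96.8 and 142.7 CPM, with at most 12.2, 28.1 and 23.1 CPM in the other 15 libraries. For ACE they were BPI, which binds bacterial lipopolysaccharide, the metalloproteinase inhibitor TIMP4 and ARHGAP26, at 1.01, 1.05 and 1.065 log2 units, where ACE varied by 2.26. For ATP6AP2 they were YWHAB, a 14-3-3 protein, the small GTPase CDC42 and the lysosomal tetraspanin CD63, at 0.22, 0.23 and 0.24 log2 units, where ATP6AP2 varied by 0.51. These likenesses are descriptions, since the libraries share depth and kind.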

How the data were processed

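Per the labels' protocols, 200 ng of RNA (integrity number 7 or higher) went through poly(A) selection, a library kit without strand marking and 12 amplification cycles, so that reads of overlapping antisense genes cannot be told apart. The submitters' processing notes name cutadapt, Bowtie2 and SAMtools. Their versions, the build and the handling of reads with several matches were not given in the sources used here. The authors deposited raw read counts, whole numbers listed by RefSeq accession and not normalized. An accession without a line was taken as 0.

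Of 27306 accessions, 133 genomic records (0.71 to 1.92% of counts) were left out. With the RefSeq gene table of ARS-UCD2.0, taken for its symbols alone, 18973 of the 27173 transcript accessions could be named, holding 95.1% of the counts. Counts were summed per gene, and CPM was computed from the transcript total. No 2 libraries were alike within sampling noise (lowest chi-square per gene 71.8), and each was counted as 1 replicate.

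Groups were compared with edgeR 4.0.16 in R 4.3.3 (TMM scaling, filter by group, robust quasi-likelihood), tested on simulated data beforehand. The simulated data had the same dispersion for all genes and no kinds of library, so they check the code and not the power in these libraries. Standard errors were derived from each log2 fold change and its F statistic. Log2 CPM has a prior count of 1. Exact permutation tests are two-sided, with the smaller tail doubled. The alternatives were other scalings, no filter, DESeq2 1.42.0, limma-voom (limma 3.58.1), the kind of library as a covariate, a replicate block and each library left out. The members and lists were chosen with earlier results of these data known. The genes named are the 5 members, pathway genes from the fixed list, INHA, markers from the fixed marker lists, and the 3 features most like each member with a median of at least 1 CPM in either kind of library, sought among named features with a mean of at least 1 CPM. The markers named beside a member were picked after their values were seen, and so were the permutation tests without treatment replicate 7 and the alternatives of the interaction.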

Additional observations from a re-analysis of the deposited data

Results flagged for a closer look

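A library was looked at again where a wide gap parted it from the nearest library of its group. The gap had to take up a share of the group's range that about 5% of groups of normally distributed values exceed. CPM with many zeros departs from such values, and some sets share libraries. Of 60 sets of values examined, 15 were marked, on the CPM scale, a number that cannot be read against the 5%. AGTR1 in treatment replicate 7, at 83.3 CPM, was marked among all 7 treatment libraries and among the 4 granulosa-rich ones, the nearest library being at 2.87 CPM. AGT in control replicate 8, at 12.5 CPM, was marked among all 9 control libraries and among the 5 granulosa-rich ones. ACE was marked in treatment replicate 6 at 7.32 CPM and in control replicate 8 at 6.26 CPM, each among the granulosa-rich libraries of its group. AGT in treatment replicate 6, at 0.297 CPM (3 counts), and AGTR2 in the same library, at 0.0989 CPM (1 count, marked in 2 sets), rest on too few reads to be read.

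Among the other pathway genes, RCAN1 was marked at 205.7 CPM in treatment replicate 7 and at 58.9 CPM in control replicate 6. ANPEP was marked at 52.4 CPM in treatment replicate 3 and at 83 CPM in control replicate 9. EDN1 was marked at 19.9 CPM in control replicate 8 and EDNRB at 28.8 CPM in control replicate 6.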

How the results depend on the processing

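Under the alternatives 330 recomputed values kept their direction and their side of the threshold or stayed within the spread, 5 changed sign and 2 counts moved. DESeq2 called 26 features in granulosa-rich libraries and 31 for the interaction, where edgeR called 0, with no p-value for AGTR1 in either. Over all libraries DESeq2 put AGTR1 at 0.17, because it replaced the 1059 counts of treatment replicate 7 by 16. With each library left out in turn, ACE ranged from -0.15 to 0.58 over all libraries (negative without treatment replicate 2), from -0.25 to 0.43 in leukocyte-rich libraries (negative without treatment replicate 2 or control replicate 1 or 6) and from -0.84 to 2.99 for the interaction (negative without treatment replicate 6). AGTR1 ranged from 0.19 to 3.81 over all libraries, from 0.6 to 4.63 in granulosa-rich libraries, from -0.9 to -0.08 in leukocyte-rich libraries and from 1.15 to 5.21 for the interaction. Over all libraries AGTR1 was at 2.47 and ACE at 0.41 with library kind as a further covariate, and at 1.97 and 1.11 with limma-voom.

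Deviations of same-numbered libraries correlated at 0.31 to 0.6 in the 3 pairs of 1 kind and at -0.6 to -0.27 in the 4 pairs of unlike kind, so the check follows library kind and does not settle pairing; the labels give none. With the replicate number as a block, 0 features passed over all libraries and in granulosa-rich ones. AGTR1 was then at 2.42 and 5.99, ATP6AP2 at -0.23 and -0.77, and ACE at 2.15 over all libraries. In leukocyte-rich libraries the block could not be fitted, because they share 1 number. At this depth AGT and AGTR2 could not be compared in most libraries.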
